A study of Homo sapiens with 8 samples.

Results

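The granins and the enzymes that process prohormones were followed as a set of 10 listed genes among the 62826 genes of the deposited tables. They are the granins CHGA, CHGB, SCG2, SCG3 and VGF, the prohormone convertases PCSK1 and PCSK2, the convertase inhibitor PCSK1N, the convertase chaperone SCG5 and the carboxypeptidase CPE. RNA was sequenced from wild-type LUHMES cells, a conditionally immortalised human midbrain line that the labels describe as dopaminergic neurons once differentiated. Treated cells received antimycin A at 25 µM with oligomycin at 10 µM for 8 h, and vehicle cells received DMSO. Antimycin A blocks respiratory complex III and oligomycin blocks the ATP synthase. Both groups had been differentiated for 6 days in medium that held tetracycline (1 µg/mL), GDNF (2 ng/mL) and dbcAMP (1 mM), so a cyclic AMP analogue was also present in the vehicle cells. There was 1 library per group for each of the differentiation numbers 2 to 5, which gave 4 treated and 4 vehicle libraries. The model is 1 cell line, each batch is said to hold 4 technical replicates, and no source says whether a number marks a batch shared by the groups.

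Granins are acidic secretory proteins that aggregate in the trans-Golgi network and help to load peptide hormones and neuropeptides into dense-core vesicles. Inside these vesicles PCSK1 and PCSK2 cut prohormones, and the granins themselves, after pairs of basic residues. CPE then removes the exposed basic residues from the new ends. Neurons release the resulting peptides in response to calcium, and several of the genes, VGF and SCG2 among them, are known from other systems to respond to cyclic AMP and to neuronal activity.

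Sequences upstream of the start sites are shown because the cyclic AMP response element, an 8-base palindrome, lies in some of them. RefSeq promoter windows on GRCh38.p14 matched 8 of the 10 genes, all but CHGB and SCG2, in 10 windows, since PCSK1 and PCSK2 have 2 windows each. Each line gives the 250 bases before the start, written 5′ to 3′ on the gene's strand, with the palindrome TGACGTCA in capitals. The PCSK1 window is the upstream one, chr5:96433249-96433498 on the minus strand. The VGF window is chr7:101165570-101165819 on the minus strand, the CHGA window is chr14:92922900-92923149 on the plus strand, and the PCSK1N window is chrX:48835611-48835860 on the minus strand.
PCSK1: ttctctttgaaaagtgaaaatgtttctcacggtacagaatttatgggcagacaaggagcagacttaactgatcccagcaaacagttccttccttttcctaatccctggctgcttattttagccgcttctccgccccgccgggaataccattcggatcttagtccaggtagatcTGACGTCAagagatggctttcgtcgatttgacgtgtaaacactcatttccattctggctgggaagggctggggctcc
VGF: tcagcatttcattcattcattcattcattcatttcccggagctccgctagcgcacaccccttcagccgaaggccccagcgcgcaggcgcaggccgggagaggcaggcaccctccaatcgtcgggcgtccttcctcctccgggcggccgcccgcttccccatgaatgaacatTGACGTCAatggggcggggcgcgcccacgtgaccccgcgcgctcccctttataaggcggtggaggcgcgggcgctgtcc
CHGA: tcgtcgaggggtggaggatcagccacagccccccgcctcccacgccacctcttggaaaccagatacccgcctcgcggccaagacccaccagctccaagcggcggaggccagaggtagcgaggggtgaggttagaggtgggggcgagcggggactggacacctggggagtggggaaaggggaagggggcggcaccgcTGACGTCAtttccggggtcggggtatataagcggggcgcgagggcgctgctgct
PCSK1N: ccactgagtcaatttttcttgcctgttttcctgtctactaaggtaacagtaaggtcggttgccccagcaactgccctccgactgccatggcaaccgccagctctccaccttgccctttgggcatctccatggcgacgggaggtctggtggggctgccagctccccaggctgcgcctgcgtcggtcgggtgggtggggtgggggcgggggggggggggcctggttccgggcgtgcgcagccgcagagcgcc

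TGACGTCA starts 77 bases before the PCSK1 start, 79 bases before the VGF start and 54 bases before the CHGA start. It was found in 3 of the 10 windows, against 1.85% of all 35116 windows, and the other PCSK1 window does not hold it. The remaining motifs are counted by gene, in either window where a gene has 2. The 5 bases TGACG, which lie within that palindrome, were found on either strand in 7 of the 8 genes and in 24.6% of all windows. The other motifs searched on both strands were TATAAA, in 2 of the 8 genes and 11.5% of all windows, CCAAT, in 4 genes and 34.6% of windows, and TGATGNAAN, in 1 gene and 3.61% of windows. The PCSK1N window, shown for comparison because that gene fell in treated cells, holds none of these 5 motifs. A match describes letters in a window and not a bound site. Of the 3 genes with the palindrome, VGF passed the test as higher in treated cells, and CHGA did not pass it. PCSK1 also passed as higher, but it met the minimum for testing only through its treated libraries. CHGB and SCG2, which passed as lower and as higher, have no window here.

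The libraries held 93.8 to 109 M estimated reads in treated cells and 93.7 to 110 M in vehicle cells. Neuronal markers were abundant, with a summed level of 4785 to 5042 CPM in treated cells and 5648 to 5980 CPM in vehicle cells over 8 genes. CPM is the read count of a gene relative to its library's scaled total, so it is not corrected for gene length. Of 10 dopaminergic markers, the dopamine transporter SLC6A3 averaged 570 CPM in treated cells and 589 CPM in vehicle cells, whereas FOXA2 and PITX3 stayed under 0.14 CPM in every library. The 10 markers summed to 516 to 684 CPM in treated libraries and 574 to 716 CPM in vehicle libraries, most of it SLC6A3. The astrocyte markers GFAP, AQP4 and S100B stayed under 0.1 CPM, and 5 microglial markers together reached at most 0.147 CPM in a treated library and 0.0691 CPM in a vehicle library. The cycling marker MKI67 averaged 37.9 CPM in treated cells and 87.6 CPM in vehicle cells, and 5 of 7 cycling markers fell while SOX2 and NES rose. Of the other marker lists, 3 of 8 neuronal markers rose and 4 fell, 2 of 7 tested dopaminergic markers rose and 2 fell, and 1 of 4 tested neuroendocrine markers rose and 2 fell. Of 3 tested markers in each remaining list, 1 rose and 1 fell for astrocytes, 0 rose and 1 fell for oligodendrocytes, and 2 rose and 0 fell for fibroblasts. The test, described below, called 57.9% of all genes tested. It called 100% of cycling, 87.5% of neuronal, 75.0% of neuroendocrine and 57.1% of dopaminergic markers tested. For astrocyte and fibroblast markers the share was 66.7% each, and for oligodendrocyte markers 33.3%. The astrocyte marker that rose was SLC1A3, a glutamate transporter, at 28.8 ± 0.762 CPM in treated cells and 3.01 ± 0.510 CPM in vehicle cells (SD, n = 4 each). The one that fell was GJA1, a gap junction protein, at 25.8 CPM in treated cells and 33.9 CPM in vehicle cells on average (log2 fold change −0.40). In RNA from whole cultures, fewer cells of a type and less RNA per cell cannot be told apart. Vehicle library 2 stood apart, with 11.5% of its reads on mitochondrial mRNAs where the other vehicle libraries had 3.27% to 4.33% and treated libraries 2.14% to 2.90%.

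Library 2 of each group also held RNA of pancreatic islet hormones. Insulin (INS) had 714, 7, 3 and 0 reads in treated libraries 2 to 5, and 887, 0, 0 and 0 reads in vehicle libraries 2 to 5. Glucagon (GCG) had 87 reads in treated library 2 and 67 in vehicle library 2, and amylin (IAPP) had 50 and 48 reads in the same libraries, with at most 1 read of either in any other library. Of the other islet markers looked at, PPY and TTR had at most 1 read in any library, G6PC2, SLC30A8 and PDX1 stayed under 0.16 CPM, and SST, at 86.5 to 131 CPM in treated and 91.5 to 177 CPM in vehicle libraries, was present in all 8. These 9 markers were chosen after their values were seen, and INS, GCG, IAPP and PPY together reached 8.65 CPM in treated library 2 and 11.04 CPM in vehicle library 2. Islet cells express several of the 10 genes, among them both convertases, so the values that rest on the libraries numbered 2 are given with and without them. With both left out, an alternative chosen after seeing the data, the same number of the 10 genes passed the test described next, 3 as higher and 2 as lower. In that fit 12152 of all genes passed, against 11461 with all 8 libraries. The part of this RNA in the values was not tested further.

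Treated cells held more RNA of SCG2, VGF and PCSK1 and less RNA of CHGB and PCSK1N than vehicle cells. The other 5 genes, CHGA, SCG3, SCG5, PCSK2 and CPE, did not pass the test. All 10 genes were tested by the quasi-likelihood test of edgeR on counts, and a gene was called where its p, adjusted by Benjamini-Hochberg, was under 0.05. The test called 57.9% of all 19785 genes tested, 27.7% as higher and 30.2% as lower, so 5 of 10 is close to the share of all genes. The median log2 fold change, treated over vehicle, was 0.02 over the 10 genes and −0.02 over all genes tested. The median size of the fold change, without its sign, was 0.42 for the 10 genes and 0.41 for all. CPM values of the 2 groups did not overlap for 6 of the 10 genes, against 53.4% of all genes tested. PCSK1 met the minimum for testing only through its treated libraries, so the count among the other 9 genes, 2 higher and 2 lower, is the one that the minimum did not shape.

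**Figure D1:**
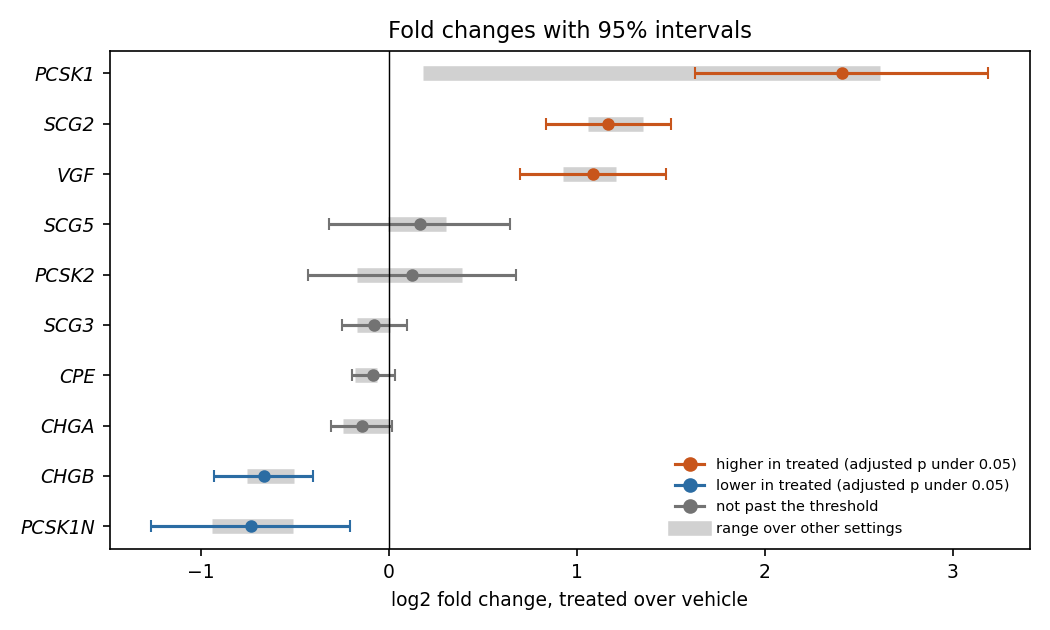
Log2 fold change (treated over vehicle) for the 10 genes, with 95% intervals (points and bars, n = 4 per group) and the range over alternative settings (grey). PCSK1 at 2.41, SCG2 at 1.17 and VGF at 1.09 lie right of 0, PCSK1N at −0.73 and CHGB at −0.67 lie left of it, and the intervals of the other 5 genes include 0.

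Levels per length, as TPM, which divides by effective length and scales each library to the same sum, spanned more than 3 orders of magnitude. CPE was the most abundant member in both groups, at 217 ± 8.99 TPM in treated cells and 245 ± 23.5 TPM in vehicle cells (SD, n = 4 each). SCG3 and CHGA followed in both groups. In treated cells the order then ran SCG2, CHGB, VGF, PCSK1N, SCG5, PCSK2 and PCSK1. In vehicle cells it ran CHGB, PCSK1N, SCG2, VGF, SCG5, PCSK2 and PCSK1. Neighbours in these orders did not overlap between genes in any library, except VGF and PCSK1N in treated cells, at 23.2 to 27.5 TPM and 16.7 to 24.7 TPM. The 3 leading genes made up 74.1% to 76.4% of the set's TPM in treated libraries and 75.0% to 78.1% in vehicle libraries. The summed TPM of the set was 613 to 659 in treated libraries and 616 to 708 in vehicle libraries. Both convertases of this pathway were therefore listed far below their substrates and below CPE, with PCSK2 under 0.7 TPM and PCSK1 under 0.13 TPM in every library.

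**Figure D2:**
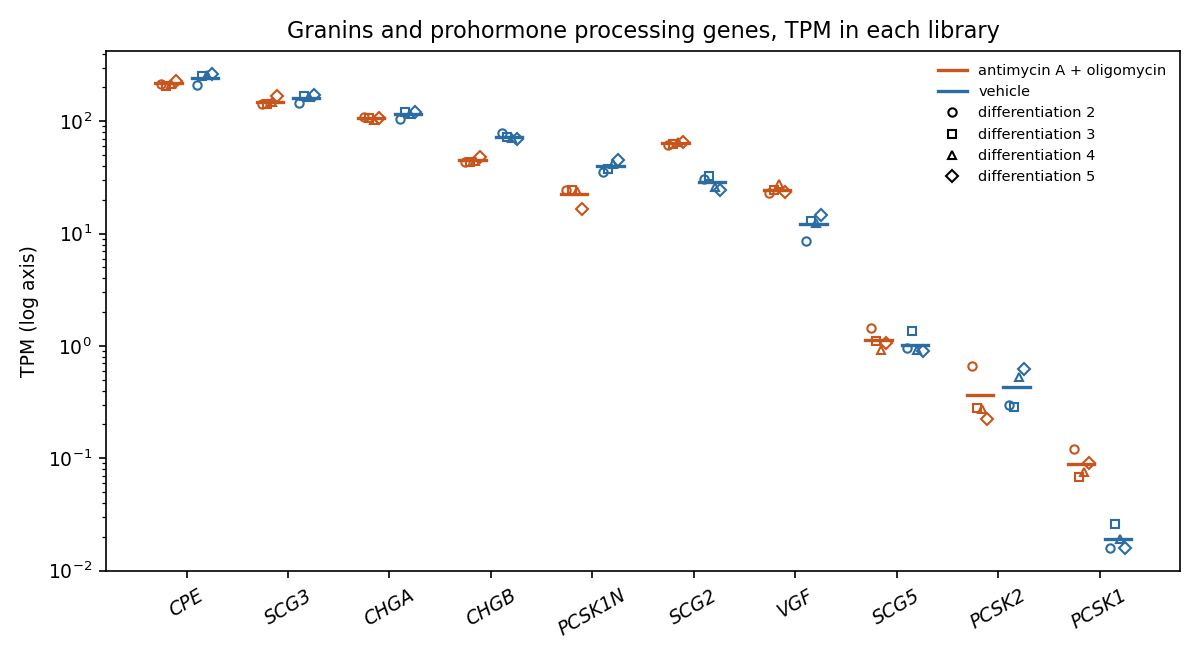
TPM of each gene in each library on a log axis, treated left of vehicle, with symbols for the differentiation number and lines at the group means. CPE, SCG3 and CHGA lie above 100 TPM in all 8 libraries, whereas SCG5, PCSK2 and PCSK1 lie below 1.5 TPM.

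Chromogranin A (CHGA, chr14:92923080-92935293, plus strand, coordinates here and below from GENCODE 29 on hg38) is the prototype granin and the precursor of several bioactive peptides. It had 93.5, 88.2, 85.4 and 75.3 CPM in treated libraries 2 to 5, and 98.6, 92.8, 93.5 and 93.8 CPM in vehicle libraries 2 to 5. Treated library 5 was the lowest, and treated library 2 lay within the vehicle values. The log2 fold change was −0.15 ± 0.0719 (SE), with a 95% interval of −0.31 to 0.01 and an adjusted p of 0.108. In TPM, which divides by an effective length that differs between libraries, CHGA had 110, 107, 103 and 107 in treated libraries and 106, 120, 115 and 120 in vehicle libraries. The interval includes no change and excludes a fall of more than 0.31. Scaled to library totals only, the fall passed the threshold (log2 fold change −0.24, adjusted p = 0.0152).

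Chromogranin B (CHGB, chr20:5911430-5925361, plus strand) is the second chromogranin of neuroendocrine vesicles. It had 43.0, 43.7, 44.5 and 48.4 TPM in treated libraries 2 to 5, and 77.9, 72.9, 70.5 and 69.1 TPM in vehicle libraries 2 to 5. Every treated library lay below every vehicle library, in TPM and in CPM. In CPM the means were 58.1 ± 1.70 in treated cells and 92.1 ± 18.4 in vehicle cells (SD, n = 4 each), and vehicle library 2, at 119 CPM, set most of the vehicle spread. CHGB fell by 0.67 ± 0.118 (SE) on the log2 scale, with a 95% interval of −0.93 to −0.40 and an adjusted p of 7.8e-04. Without vehicle library 2 the log2 fold change was −0.52, and the call held under all 21 alternatives run.

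The balance of the 2 chromogranins was tested as a ratio. The log2 ratio of CHGA to CHGB in TPM was 1.15 to 1.35 in treated libraries and 0.44 to 0.80 in vehicle libraries, which did not overlap. The difference was 0.58, with p = 0.0286 by an exact two-sided permutation test, the smallest p that 4 against 4 libraries allow, and 0.0571 once adjusted over 4 such ratios, which misses the threshold. As a ratio of CPM the difference was 0.50, with an adjusted p of 0.0381 by the same exact test, since a further ratio then also reached the smallest p.

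Secretogranin II (SCG2, chr2:223596940-223602503, minus strand) is the precursor of secretoneurin. It had 62.1, 62.2, 64.8 and 65.8 TPM in treated libraries 2 to 5, and 30.8, 32.8, 26.1 and 24.7 TPM in vehicle libraries 2 to 5. The treated libraries lay within 4 TPM of each other and all above the vehicle libraries. SCG2 rose by 1.17 ± 0.149 (SE) on the log2 scale, with a 95% interval of 0.84 to 1.5 and an adjusted p of 8.8e-05. A change of that size or larger, in either direction, was seen in 13.7% of all genes tested. By mean TPM, SCG2 ranked above CHGB in treated cells and below CHGB and PCSK1N in vehicle cells.

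VGF (chr7:101162509-101165593, minus strand), named for its induction by nerve growth factor, is the precursor of several neuropeptides. It had 24.1, 24.2, 26.6 and 16.9 CPM in treated libraries 2 to 5, and 7.56, 11.5, 11.4 and 12.7 CPM in vehicle libraries 2 to 5. The groups did not overlap, and treated library 5 and vehicle library 2 were the lowest of their groups. VGF rose by 1.09 ± 0.174 (SE) on the log2 scale, with a 95% interval of 0.70 to 1.48 and an adjusted p of 4.0e-04. In TPM it had 23.2, 24.4, 27.5 and 23.5 in treated libraries and 8.56, 12.9, 12.5 and 14.6 in vehicle libraries, so the treated library that was low in CPM lay among the others. The main VGF transcript is 70.6% G and C, and its effective length was 1333 bases in treated library 5 and 1320 bases in vehicle library 2, against 1713 to 1817 bases in the other 6 libraries.

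Secretogranin III (SCG3, chr15:51681353-51721031, plus strand) binds CHGA and cholesterol-rich vesicle membranes. It had 231, 227, 238 and 262 CPM in treated libraries 2 to 5, and 285, 239, 242 and 244 CPM in vehicle libraries 2 to 5. The groups overlapped, with treated library 5 above 3 of the vehicle libraries. The log2 fold change was −0.08 ± 0.0769 (SE), with a 95% interval of −0.25 to 0.09 and an adjusted p of 0.419. General neuronal markers moved in the same libraries: TUBB3 and STMN2 fell by 0.40 and 0.44 on the log2 scale, whereas SNAP25 and SYP rose by 0.49 and 0.27. The part of these markers, and of the cycling markers above, in the granin values was not tested.

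**Figure D3:**
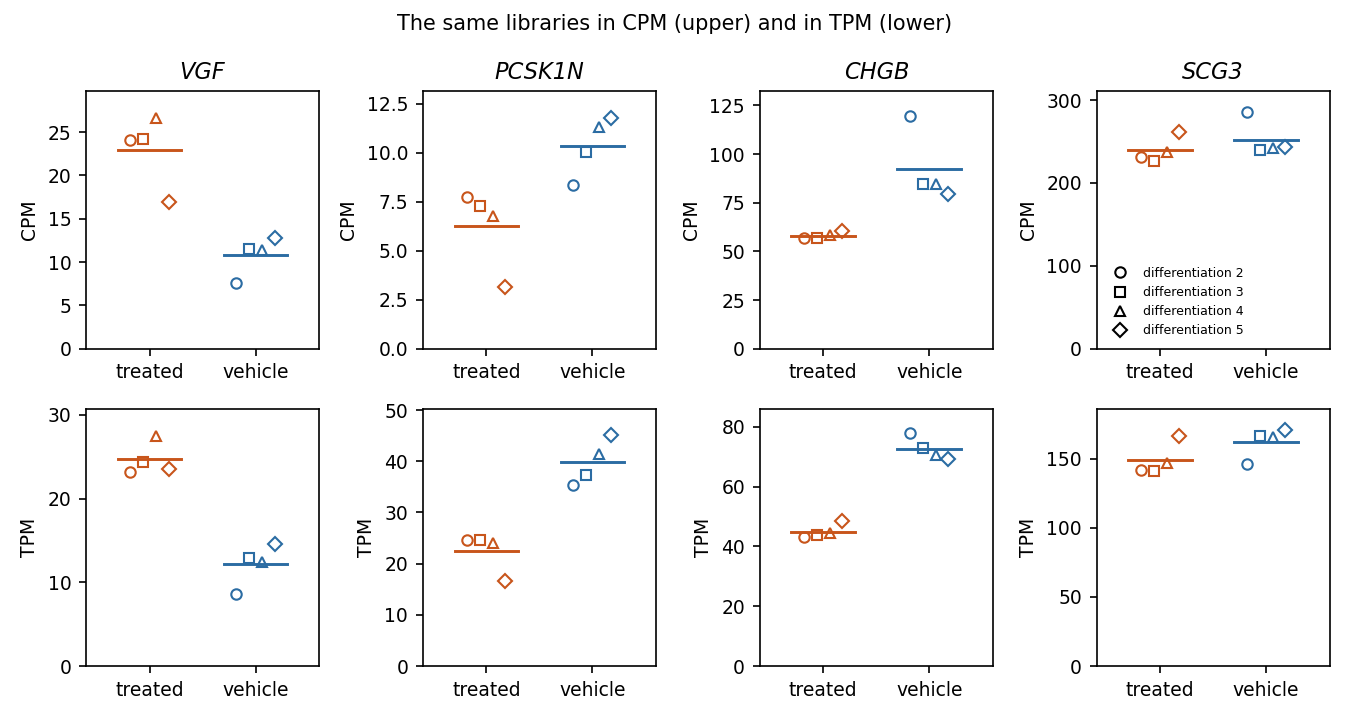
The same libraries in CPM (upper row) and TPM (lower row) for VGF, PCSK1N, CHGB and SCG3, treated left of vehicle, with symbols for the differentiation number and lines at the group means. For VGF, treated library 5 lies at 16.9 CPM, apart from the other treated libraries, and at 23.5 TPM, among them, and for CHGB vehicle library 2 lies at 119 CPM and 77.9 TPM.

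Prohormone convertase 1/3 (PCSK1, chr5:96390415-96434143, minus strand) makes the first cuts in many prohormones. It was counted at 33, 17, 22 and 24 reads in treated libraries 2 to 5, and at 5, 7, 5 and 2 reads in vehicle libraries 2 to 5. Each treated library held more PCSK1 reads than any vehicle library, but all 8 were near the floor of detection. PCSK1 rose by 2.41 ± 0.350 (SE) on the log2 scale, with a 95% interval of 1.63 to 3.19 and an adjusted p of 2.1e-04. Pooled, the 96 treated reads against 19 vehicle reads gave a ratio of 5.09 after division by library totals, with a 95% interval of 3.09 to 8.82 that covers counting error only. Treated library 2, which held the islet hormone reads, was the highest. With both libraries numbered 2 left out, the log2 fold change of PCSK1 was 2.31 with an adjusted p of 8.6e-04. On log2(TPM + 0.5), a scale that compresses genes this low, the change was 0.18. An antisense gene, AC104123.1, overlaps the whole of PCSK1, and the sources used here do not state whether counting used strand, so reads of the 2 genes cannot be told apart.

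Prohormone convertase 2 (PCSK2, chr20:17226107-17484578, plus strand) acts later in the pathway and completes the processing of many neuropeptides. It was counted at 104, 61, 69 and 49 reads in treated libraries 2 to 5, and at 77, 68, 75 and 56 reads in vehicle libraries 2 to 5. The groups overlapped, and treated library 2 held the most reads. The log2 fold change was 0.12 ± 0.248 (SE), with a 95% interval of −0.43 to 0.67 and an adjusted p of 0.689. Without both libraries numbered 2 the log2 fold change was 0.02, and without treated library 2 alone it was −0.11. The sign also differed by scale: mean TPM was 0.362 ± 0.206 in treated cells and 0.434 ± 0.167 in vehicle cells (SD, n = 4 each). At this depth a fall of 0.43 or a rise of 0.67 on the log2 scale could not be told from no change. The log2 TPM ratio of PCSK1 to PCSK2 was 0.90 higher in treated cells, with p = 0.0857 by the exact two-sided permutation test and 0.114 adjusted over the 4 ratios. As a ratio of CPM the difference was 1.15, with an adjusted p of 0.0381 by the same exact test. Effective lengths enter the TPM ratio alone. That of PCSK1 was 2128 bases in vehicle library 5, which held 2 reads, and 4907 to 5081 bases in the other libraries.

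PCSK1N (chrX:48831094-48835633, minus strand) encodes proSAAS, a granin-like protein that inhibits PCSK1. It had 24.6, 24.7, 24.1 and 16.7 TPM in treated libraries 2 to 5, and 35.4, 37.4, 41.3 and 45.1 TPM in vehicle libraries 2 to 5. All treated libraries lay below all vehicle libraries, and treated library 5 was the lowest. In CPM, the scale of the test, treated libraries had 7.73, 7.28, 6.79 and 3.17, and vehicle libraries had 8.35, 10.1, 11.3 and 11.8. The gap between the groups was narrow on that scale, between treated library 2 and vehicle library 2. PCSK1N fell by 0.73 ± 0.238 (SE) on the log2 scale, with a 95% interval of −1.26 to −0.20 and an adjusted p of 0.0225.

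Some alternatives ended this call. It was lost without vehicle library 4 (log2 fold change −0.69, adjusted p = 0.0513) and without vehicle library 5 (−0.67, adjusted p = 0.0549). The PCSK1N transcript is 74.5% G and C, and its effective length was 352 bases in treated library 5 and in vehicle library 2, against 500 to 550 bases in the other 6 libraries. With effective length as an offset in the fit, the log2 fold change was −0.76 with an adjusted p of 9.7e-04. With treated library 5 and vehicle library 2 both left out, it was −0.61 with an adjusted p of 5.9e-05. The authors' deposited table of coding genes comes from the same libraries. It gives PCSK1N a log2 fold change of −0.70 at a false discovery rate of 0.00503.

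PCSK1 was called higher in treated cells and its inhibitor lower, each with limits. PCSK1 met the minimum for testing only through its treated libraries, and its reads cannot be told from those of its antisense gene. The call of PCSK1N was lost without vehicle library 4 or 5. The log2 TPM ratio of PCSK1 to PCSK1N was taken with 0.1 TPM added to each gene. It was −7.21 to −6.46 in treated libraries and −8.61 to −8.22 in vehicle libraries. The difference was 1.49, with p = 0.0286 by the exact two-sided permutation test, its smallest value, and 0.0571 adjusted over the 4 ratios, which misses the threshold. As a ratio of CPM the difference was 2.03, with an adjusted p of 0.0381 by the same exact test. The inhibitor remained far more abundant than the convertase in both groups, at 22.5 ± 3.90 TPM against 0.0885 ± 0.0231 TPM in treated cells, and at 39.8 ± 4.31 TPM against 0.0193 ± 0.00472 TPM in vehicle cells (SD, n = 4 each).

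SCG5 (chr15:32641676-32697098, plus strand) encodes 7B2, the chaperone that PCSK2 needs to mature. It was estimated at 79.9, 52.2, 53.1 and 51.9 reads in treated libraries 2 to 5, and at 59.4, 71.6, 44.3 and 51.6 reads in vehicle libraries 2 to 5. The groups overlapped in part, with treated library 2 the highest and vehicle library 4 the lowest. The log2 fold change was 0.16 ± 0.216 (SE), with a 95% interval of −0.32 to 0.65 and an adjusted p of 0.536. It was 0.09 without both libraries numbered 2 and −0.0023 without treated library 2 alone. These estimates are not whole numbers, and a read-through gene, ARHGAP11A-SCG5, shares the locus, with 99.9 to 230 reads in treated libraries and 109 to 174 reads in vehicle libraries. The split of reads between the 2 genes is uncertain. The log2 TPM ratio of PCSK2 to SCG5 was −1.49 ± 0.358 in treated cells and −1.12 ± 0.661 in vehicle cells (SD, n = 4 each). The difference of −0.37 did not exceed the vehicle SD (exact two-sided permutation test, p = 0.343, adjusted p = 0.343). As a ratio of CPM, which leaves out effective lengths, the difference was −0.05 (same exact test, adjusted p = 0.771).

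Carboxypeptidase E (CPE, chr4:165361194-165498320, plus strand) trims basic residues from peptide ends and is also known as a sorting receptor for prohormones. It had 255, 243, 251 and 252 CPM in treated libraries 2 to 5, and 264, 261, 273 and 263 CPM in vehicle libraries 2 to 5. All treated libraries lay below all vehicle libraries in CPM, by a small margin. In TPM the groups overlapped, at 217, 208, 215 and 230 in treated libraries and 210, 252, 257 and 261 in vehicle libraries. The log2 fold change was −0.08 ± 0.0517 (SE), with a 95% interval of −0.20 to 0.03 and an adjusted p of 0.191. CPE passed the threshold with library totals as the only scaling (log2 fold change −0.18, adjusted p = 0.0230) and with treated library 5 and vehicle library 2 both left out (−0.09, adjusted p = 0.0461), also with effective length as an offset (−0.12, adjusted p = 0.0206). Its interval excludes a fall of more than 0.20 on the log2 scale.

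The mix of transcripts was tested for the 4 genes with at least 2 transcripts of sufficient depth, which were CHGA, CHGB, SCG3 and CPE. Usage differed for 8.61% of the 11746 genes tested, and among the 4 it differed for CHGA alone (edgeR, adjusted p = 0.0088). CHGB and SCG3 each had an adjusted p of 1.0 and CPE of 0.748. The full-length coding transcript CHGA-201 made up 81.6%, 80.6%, 82.5% and 80.2% of CHGA TPM in treated libraries 2 to 5, and 90.7%, 88.0%, 90.6% and 91.4% in vehicle libraries 2 to 5. CHGA-206, an annotated retained-intron transcript, made up 12.2%, 14.1%, 12.3% and 12.7% in treated libraries and 6.04%, 5.76%, 6.32% and 5.42% in vehicle libraries. Neither transcript overlapped between the groups.

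For CHGA-206 and CHGA-203, 1 stretch each is shown that CHGA-201 does not hold. Both are on the plus strand of hg38 and written 5′ to 3′. For CHGA-206 the stretch is chr14:92932832-92932871, where the end of exon 7 of CHGA-201 runs on into the next intron, of which 404 bases are kept, with the intron in capitals. For CHGA-203, a noncoding transcript named here after its values were seen, the stretch joins the end of exon 1 to the start of exon 3 of CHGA-201 and skips the 47 bases of exon 2, with exon 3 in capitals. CHGA-203 also ends in an exon of its own, chr14:92932138-92932268, between exons 6 and 7 of CHGA-201. Which of these stretches its reads came from was not tested.
CHGA-206: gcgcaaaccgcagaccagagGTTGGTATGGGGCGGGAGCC
CHGA-203: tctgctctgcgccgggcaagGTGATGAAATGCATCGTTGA

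By transcript, the test was passed by CHGA-203 alone among the 6 CHGA transcripts (adjusted p = 0.0069, edgeR), with a usage log2 fold change of 2.04. CHGA-203 was estimated at 67, 59, 47 and 134 reads in treated libraries 2 to 5, and at 8, 22, 15 and 3 reads in vehicle libraries 2 to 5. It was a small part of CHGA, 1.99 ± 1.16% of its TPM in treated cells and 0.274 ± 0.18% in vehicle cells (SD, n = 4 each), and treated library 5 held the most. CHGA-206, at 12.8 ± 0.848% of CHGA TPM in treated cells and 5.88 ± 0.383% in vehicle cells, did not pass the test by transcript (adjusted p = 0.345). The call for CHGA as a gene was lost with a minimum of 50 reads per transcript (adjusted p = 0.307), without treated library 5 (0.0819) and without vehicle library 5 (0.0592). CHGA-201 itself stood at 86.7 ± 2.08 TPM in treated cells and 104 ± 5.87 TPM in vehicle cells.

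**Figure D4:**
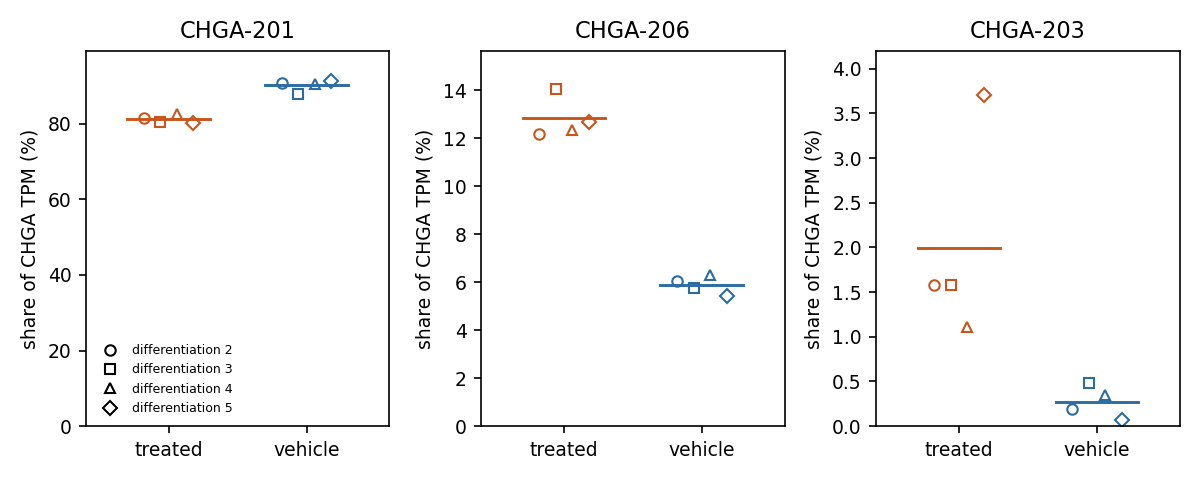
Share of CHGA TPM, in percent, held by 3 CHGA transcripts in each library, treated left of vehicle, with lines at the group means. CHGA-201 averages 81.2% in treated and 90.1% in vehicle cells, CHGA-206 averages 12.8% and 5.88%, and CHGA-203 averages 1.99% and 0.274%, with treated library 5 the highest at 3.71%.

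Among other enzymes of the pathway, the remaining proprotein convertases did not pass the test in either direction: 0 of 7 were called, against 57.9% of all genes tested, with a median log2 fold change of 0.06. The count was 1 or 2 under 6 of the 21 alternatives, and 1 without treated library 5. At an unadjusted p under 0.05 edgeR passed 1 of the 7, PCSK4, named after its values were seen. DESeq2 called 1 of the 7 at its adjusted p and limma called 0. FURIN, the ubiquitous convertase of the trans-Golgi network, averaged 21.2 ± 2.81 CPM in treated cells and 20.3 ± 2.46 CPM in vehicle cells (SD, n = 4 each), a log2 fold change of 0.06 ± 0.117 (SE) with an adjusted p of 0.67. Of 10 trimming and finishing enzymes tested, 4 rose and 3 fell, so 7 of 10 were called against 57.9% of all genes tested, with a median of 0.25. The alternatives called 4 to 9 of the 10, and 4 without vehicle library 4. QPCT and QPCTL, which close the amino end of peptides as pyroglutamate, rose by 1.28 and 1.04 on the log2 scale. AEBP1, a carboxypeptidase-like protein, rose by 0.47, and the protease CTSB and the aminopeptidase RNPEP fell by 0.43 and 0.42. The call of AEBP1 was lost under 5 alternatives, without treated library 2 or 3, vehicle library 4 or 5, or with library totals only, and its log2 fold change was 0.38 to 0.67 over the alternatives. The call of RNPEP was lost under 4, among them without treated library 5 or vehicle library 4, within a range of −0.58 to −0.35. CPD, a carboxypeptidase related to CPE, rose by 0.26, a call lost under 11 of the 21 alternatives run, 6 of them with 1 library left out (treated 3, 4 or 5, vehicle 2, 3 or 4), within a range of 0.15 to 0.34. PAM, the enzyme that amidates peptide ends, had a log2 fold change of 0.12 and did not pass (adjusted p = 0.086).

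Genes of dense-core vesicle formation and release moved in both directions, with 12 of 38 tested higher and 8 lower, or 52.6% called against 57.9% of all genes tested, and a median log2 fold change of −0.02. SYT9, named after its values were seen, met the read minimum only through its vehicle libraries and was not called. Among the other 37, 54.1% were called. SYT4, a vesicle synaptotagmin, averaged 482 ± 29.9 CPM in treated cells and 163 ± 20.1 CPM in vehicle cells (SD, n = 4 each), a rise of 1.56 ± 0.0928 (SE) on the log2 scale (adjusted p = 5.4e-07). SYT7, a calcium sensor of release, rose by 0.65, and CYB561, the vesicle cytochrome that supplies electrons for amidation, rose by 1.09. RAB27B, a small GTPase of vesicle docking, averaged 0.185 ± 0.0118 CPM in treated cells and 1.82 ± 0.228 CPM in vehicle cells, a fall of 3.29 ± 0.158 (SE) on the log2 scale (adjusted p = 1.4e-07). CADPS, which primes dense-core vesicles, fell by 0.70, and UNC13B, another priming factor, fell by 0.37. HID1, which acts in vesicle maturation, rose by 0.43. Of the vesicle membrane proteins related to tyrosine phosphatases, PTPRN rose by 0.35, a call lost under 6 alternatives, among them without treated library 2 or 3, vehicle library 4 or 5, or both libraries numbered 2, within a range of 0.24 to 0.57. PTPRN2 had −0.13 and did not pass, but was called lower under 4 alternatives that all left out vehicle library 2, within a range of −0.23 to −0.09.

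Precursors of neuropeptides, peptide hormones and other secreted neuronal proteins, the possible cargo of this machinery, were mostly near the floor. The most abundant by mean TPM were SST, GAL and CBLN1. SST averaged 481 TPM in treated cells and 566 TPM in vehicle cells, and CBLN1 averaged 102 and 117 TPM. Neither passed the test (log2 fold changes of −0.23 and −0.11). GAL averaged 122 TPM in treated cells and 96.6 TPM in vehicle cells, a rise of 0.40 on the log2 scale with overlapping CPM values. Of 57 listed, 25 were tested, 12 rose and 3 fell, or 60.0% called against 57.9% of all genes tested, and the median log2 fold change was 0.50. CALCB and ADM met the read minimum only through their treated libraries and APLN only through its vehicle libraries, so the minimum favoured a difference in them. Among the other 22, 10 rose and 2 fell, or 54.5%. SST, GAL, CBLN1, CALCB, ADM and APLN are named after their values were seen. ADM2, the precursor of adrenomedullin 2, averaged 41.3 ± 6.42 CPM in treated cells and 0.636 ± 0.179 CPM in vehicle cells (SD, n = 4 each), a rise of 6.03 ± 0.203 (SE) on the log2 scale (adjusted p = 1.5e-08). BDNF, a growth factor stored in dense-core vesicles, averaged 4.41 ± 0.382 CPM in treated cells and 0.466 ± 0.112 CPM in vehicle cells, a rise of 3.25 on the log2 scale. NXPH4, a secreted ligand of neurexins and no classical peptide hormone, rose by 2.58.

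Among 16 CREB factors, coactivators and cyclic AMP kinase genes, 10 rose and 3 fell, or 81.3% called against 57.9% of all genes tested, with a median log2 fold change of 0.42. CREB1 itself had 0.20 and did not pass (adjusted p = 0.090), although 6 alternatives called it higher, among them without treated library 2 or vehicle library 2, within a range of 0.11 to 0.33, whereas CREM, a CREB relative with activating and repressing forms, rose by 0.60. CREB5 averaged 137 ± 16.3 CPM in treated cells and 34.2 ± 6.19 CPM in vehicle cells (SD, n = 4 each), a rise of 2.00 on the log2 scale. The size of this rise depended on the scale: in TPM CREB5 averaged 50.8 in treated cells and 22.4 in vehicle cells. Its log2 fold change was 1.16 to 2.20 over the alternatives, and it was called in all of them. CREB3L1 and CREB3L2, membrane-bound factors of the endoplasmic reticulum, rose by 3.97 and 1.32. PRKAR2B, CREB3 and PRKACA fell by 0.40, 0.30 and 0.19. The call of PRKACA was lost in 4 of the fits that leave out 1 library (treated 3, treated 4, vehicle 4 or vehicle 5), within a range of −0.30 to −0.14, and that of CREB3 in limma. REST, the repressor that silences neuronal genes outside the nervous system, had a log2 fold change of −0.06 and did not pass, and of 12 genes of REST and its corepressors 1 rose, RCOR3 by 0.80, and 1 fell, KDM1A by 0.44. That list had 16.7% called against 57.9% of all genes tested, but its count was 2 to 8 under the alternatives, 6 without vehicle library 2 and 7 without both libraries numbered 2. The neuroendocrine factor INSM1 rose by 0.63 and NEUROD1 fell by 0.50.

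**Figure D5:**
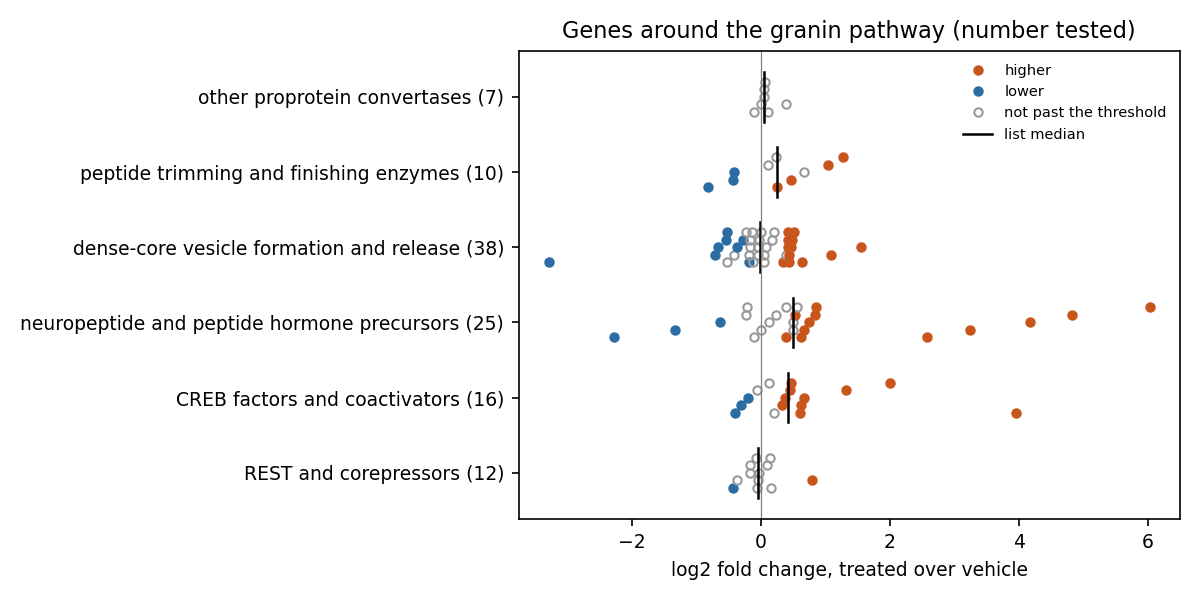
Log2 fold change (treated over vehicle) for each tested gene of 6 related gene lists, coloured by the call, with a bar at each list's median. The 7 other proprotein convertases lie near 0 without a call, whereas neuropeptide and peptide hormone precursors reach 6.03 (ADM2) and vesicle genes reach −3.29 (RAB27B).

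Profiles over the 8 libraries were compared by the root mean square difference of log2 CPM, each centred on its own mean, among genes with a mean of at least 5 CPM. The profile of PCSK1, the member with the largest fold change, was nearest to TGFBR3, TMEM268 and SRXN1, each at a difference of 0.32 and with fold changes of 2.05, 1.99 and 2.05 on the log2 scale. PCSK1 itself reached at most 0.335 CPM, far below that mean of 5 CPM. A prior count of 2 was added before taking logs, which compresses the profile of a gene this low. The profile of PCSK1N, the member with the lowest fold change, was nearest to ZBTB45, TERT and EXOSC4, at differences of 0.15, 0.16 and 0.16 and with fold changes of −0.74, −0.63 and −0.83. These are descriptions over 8 libraries that share the 2 groups.

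The authors' deposited table of coding genes lists 8 of the 10 genes, without PCSK1 and PCSK2. It was made from the same 8 libraries, and 7444 of its 12898 genes have a false discovery rate under 0.05. In that table SCG2 has a log2 fold change of 1.13, VGF of 1.11, CHGB of −0.65 and PCSK1N of −0.70, each at a false discovery rate under 0.05. CPE, SCG3, CHGA and SCG5 have −0.08, −0.10, −0.12 and 0.24 in the authors' deposited table, all above that rate.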

How the data were processed

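Gene expression was measured by RNA sequencing in 8 libraries of a human cell line, 4 treated and 4 vehicle, grouped by the GEO titles. The authors deposited gene and transcript tables with estimated counts (which need not be whole) and effective lengths, per the file headers. TPM values in the same tables are scaled by effective length, per the file headers. The authors' deposited table of coding genes gives, per library, a signal of unnamed unit, and per gene a log2 fold change with its p-value and false discovery rate. HISAT2, SAMtools, StringTie and hg38 are named per the submitters' processing notes. The quantifier that wrote the tables, and its use of strand, are not named in these sources.

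Estimated counts were rounded, filtered with filterByExpr, scaled with TMM and compared in R 4.3.3 with edgeR 4.0.16 (quasi-likelihood F-test, no covariate), with Benjamini-Hochberg adjustment over all 19785 genes tested. Each SE is the fold change's size divided by the root of its F statistic. The series text calls the batches independent, and p-values measure the spread between them. Library pairs within a group differed by 14.0 to 435 in chi-square per degree of freedom, so none was the same library sequenced again. This measure cannot tell separate preparations of 1 batch from separate batches. Transcript usage was tested with diffSpliceDGE and Simes p-values on transcripts that reached 10 reads in 4 or more libraries. In simulated counts that test made more false calls than its adjusted p allows, and it takes no account of how surely reads were assigned to transcripts. Log2 TPM ratios used a pseudocount of 0.1 TPM and were tested by exact permutation (two-sided, 70 assignments of libraries), adjusted over 4 ratios. That pseudocount is larger than the mean PCSK1 level in both groups, 0.0885 TPM in treated cells and 0.0193 TPM in vehicle cells. It understates the group differences in the PCSK1 ratios. Alternatives covered scaling, filters, DESeq2 1.42.0, limma 3.58.1 on log2(TPM + 0.5), effective length, a replicate block, each library left out and 2 pairs of libraries left out.

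The members and the gene lists were chosen with earlier results of these data known. Genes named are the 10 members, 11 related genes given whatever their result, and the 3 nearest profiles of 2 members. From each list, up to 3 rising and 3 falling genes past the threshold are named. These have a mean of at least 1 CPM and the smallest adjusted p. Transcripts beside the main one are named where they held at least 10% of a member's TPM in the mean of either group. Marker genes, islet genes, PCSK4, SYT9, GAL, CBLN1, CALCB, ADM, APLN and CHGA-203 were named after their values were seen. Promoter windows came from RefSeq. Protein sequences, part of the planned description, were not used here.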

Additional observations from a re-analysis of the deposited data

Results flagged for a closer look

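A gap test for a sample far from the others of its group (Dixon's test at its 95% critical value) was applied to 44 groups of 4 libraries. It marked 9 of them, and chance alone marks about 1 in 20 groups. Of the 9, 3 were values of the set or of mitochondrial mRNA, all in vehicle library 2. CHGB stood at 119.5 CPM there, whereas the other vehicle libraries had 79.6 to 84.8 CPM. SCG3 stood at 285.0 CPM, whereas the others had 239 to 244 CPM. Mitochondrial mRNAs made up 11.47% of its reads, against 3.27% to 4.33% in the others. In TPM, CHGB stood at 77.9 in that library and at 69.1 to 72.9 in the other vehicle libraries, and SCG3 at 146 and at 166 to 171. The part of the mitochondrial reads in the CHGB and SCG3 values was not tested, and CHGB was called lower in treated cells with and without that library (log2 fold changes of −0.67 and −0.52).

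The other 6 were islet hormones, looked at after their values were seen, in library 2 of each group. INS stood at 7.255 CPM in treated library 2 and 9.777 CPM in vehicle library 2, GCG at 0.884 and 0.738 CPM, and IAPP at 0.508 and 0.529 CPM. The other treated libraries had at most 0.0778 CPM of any of the 3, and the other vehicle libraries at most 0.00905 CPM.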

How the results depend on the processing

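Of the 10 genes, 4 to 7 passed the threshold under the 21 alternatives, 5 in the reported fit, and no result changed direction while called. Over the same alternatives 9511 to 13980 of all genes were called, against 11461 in the reported fit. The 2 alternatives that leave out both treated library 5 and vehicle library 2, and the one that leaves out both libraries numbered 2, were chosen after seeing the data. The last called 12152 of all genes, the same number of members (5), 66 related genes and 1183 genes for transcript usage. Its ratios could not pass, since 3 against 3 libraries allow no exact p under 0.10. SCG2 (1.06 to 1.35), VGF (0.93 to 1.21) and CHGB (−0.75 to −0.50) kept their calls under all 21, and PCSK1 under the 20 that tested it (0.18 to 2.61, the lowest on the TPM scale). It was not tested with at least 10 reads in all 8 libraries. PCSK1N ranged from −0.94 to −0.51. Library totals as the only scaling moved the median of all genes by −0.098 and called 4 members lower. As ratios of CPM, PCSK1 to PCSK1N (2.03), PCSK1 to PCSK2 (1.15) and CHGA to CHGB (0.50) passed the threshold. Counts of genes with changed transcript usage ran from 588 to 1489 with 1 library left out, against 1011 with all 8. Related genes called in 6 lists ranged from 47 to 79, against 57.

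Same-numbered libraries correlated at −0.080, 0.032, 0.025 and −0.0014 in their deviations from the group means. These values cannot settle whether a number marks a shared batch, and both libraries numbered 2 held the islet hormone reads. With differentiation number as a replicate block, edgeR called 10764 genes against 11461 without it, the same 5 members, 56 related genes and 744 genes for transcript usage. In the paired sign-flip test of the ratios (differences 1.49, −0.37, 0.90 and 0.58 unchanged), the smallest possible p is 0.125. Counts of 2 to 7 PCSK1 reads per vehicle library, and 44.3 to 104 reads of SCG5 and PCSK2 per library, limit what could be resolved for these 3 genes.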
